A study of Homo sapiens with 15 samples.

Results

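The nuclear-encoded subunits of respiratory complexes II to V, together with cytochrome c, were examined as 41 genes. They were taken by symbol from the 55773 rows of the deposited footprint table, which uses the older ATP5 names. They comprise 4 subunits of complex II, 10 genes of complex III and cytochrome c, 12 of complex IV and 15 of complex V. All 41 were in the table and all passed the filter on low values, with between 221 reads (SDHD) and 85000 reads (ATP5B) in any library. Ribosome profiling sequences the mRNA fragments that ribosomes protect from nuclease, so a gene's count reflects both how much of its mRNA there is and how often it is translated. No measure of mRNA amount was used here, so these cannot be told apart, nor can fewer cells of a type and less RNA per cell.

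The 15 libraries are of HEK293 cells, which derive from human embryonic kidney, with 3 libraries in each of 5 groups. The 3 groups of Flp-In T-REx 293 cells carried an inducible Flag/HA control, Flag/HA-ZC3H7A or Flag/HA-ZC3H7B construct. They are labelled as doxycycline-treated, with induction at 1 µg/mL for 24 h, and as independent replicates. They are called the control, ZC3H7A and ZC3H7B libraries below. The labels name no second line for any construct, so construct and line cannot be told apart. A change given as with ZC3H7A or with ZC3H7B is thus that of the libraries so labelled. The Parental group has the genotype Wild-type-shCTR (a control short hairpin RNA), and the ZC3H7A/B-DD group the genotype ZC3H7A-KO-shZC3H7B (a knockout with a hairpin). Cycloheximide, at 100 µg/mL, is given for these 2 groups and not for the Flag/HA groups. Puromycin, at 5 µg/mL, was used to select the Parental and ZC3H7A/B-DD groups and was withdrawn 2 passages before collection. Whether their replicates were separate cultures, and whether the lines are single clones, is not given in the sources used here, so p-values there cover the spread between these libraries only, and that spread may be technical. Both genes code for zinc finger proteins of the CCCH type. The study set added ZC3H7A or ZC3H7B against a tagged control, and loss of both against a parental line. The 2 sets differ in lysis buffer, library kit and laboratory, so their levels were not tested against each other.

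Libraries held 20777204 to 42680589 assigned reads. ZC3H7A itself rose from 6547 ± 52.6 normalized counts (SD, n = 3) in the control to 38044 ± 562 in the ZC3H7A libraries (log2 change 2.54). ZC3H7B rose from 2152 ± 71.8 to 27885 ± 927 in the ZC3H7B libraries (log2 change 3.70). The other gene of the pair moved as well, at an unadjusted p under 0.05 (limma). ZC3H7B was higher in the ZC3H7A libraries, and ZC3H7A was lower in the ZC3H7B libraries. In the libraries that carry the label ZC3H7A/B-DD, however, ZC3H7A stood at 7116, 1890.3 and 5066, against 1885, 1819.9 and 2311 in Parental. ZC3H7B stood there at 3948, 2399 and 2969, against 2479, 2321 and 2609. Neither target was lower there, which goes against the label, and which part of either gene was deleted or targeted is not given in the sources used here. These 3 are called the DD-labelled libraries below, and each direction there is that of the libraries so labelled, not of a shown loss of either gene. Relative to counting noise, the chi-square per degree of freedom between replicates ran from 1.65 to 6.06 among Flag/HA libraries. It ran from 8.72 to 87.9 in the other set, and both of its highest values involved Parental replicate 3. Of 7 markers of HEK293 cells, VIM stood between 17454 and 43627 normalized counts in every library, KRT8, KRT18 and PAX2 were present, and the neurofilament genes NEFM and NEFH stayed at or below 35.0. The neurofilament gene NEFL read 24.1 to 66.0 in libraries of the Flag/HA set, while Parental and DD-labelled libraries held 250.5 to 343. Between Parental and the DD-labelled libraries, VIM moved from 21922 ± 4964 to 41677 ± 2444 and KRT8 from 1098 ± 292 to 209 ± 35.9. KRT8 also stood at 330.2 ± 33.7 with ZC3H7A and 628 ± 52.1 with ZC3H7B, against 921 ± 26.8 in the control. The part of such differences between the lines in the results was not tested. Summed fibroblast markers reached at most 534, and summed blood cell markers 795, where HBB made up most.

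Complex II (succinate dehydrogenase) oxidises succinate in the citric acid cycle and passes its electrons to ubiquinone. Complex III hands them on to cytochrome c, and complex IV (cytochrome c oxidase) transfers them to oxygen, both while pumping or releasing protons across the inner mitochondrial membrane. Complex V (ATP synthase) lets the protons flow back to make ATP. Complex II is encoded wholly in the nucleus, whereas complexes III, IV and V also hold subunits made on mitochondrial ribosomes, so their assembly draws on both genomes. The nuclear-encoded subunits are made by cytosolic ribosomes, whose footprints are counted here, and are imported.

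The first sequences shown are those of ATP synthase subunit c, since ATP5G3 and ATP5G2 had, with SDHB, the 3 lowest changes in the DD-labelled libraries. Subunit c is the proton-carrying subunit of the membrane ring. It is encoded by ATP5G1, ATP5G2 and ATP5G3 (now ATP5MC1, ATP5MC2 and ATP5MC3), which lie at chr17:48892765-48895871, chr12:53632726-53677408 and chr2:175176258-175184607 in GRCh38. They differ in the targeting peptide that is cut off on import, whereas the last 77 codons of all 3 encode the same residues. These stretches, from GENCODE release 29, are printed 5′ to 3′ with their stop codon, with codons ending in A or T in capitals.
ATP5G1: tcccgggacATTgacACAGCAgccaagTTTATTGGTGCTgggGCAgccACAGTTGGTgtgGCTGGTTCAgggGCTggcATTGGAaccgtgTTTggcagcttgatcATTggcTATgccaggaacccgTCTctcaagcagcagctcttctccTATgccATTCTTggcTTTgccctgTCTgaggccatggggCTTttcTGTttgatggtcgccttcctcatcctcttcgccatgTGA
ATP5G2: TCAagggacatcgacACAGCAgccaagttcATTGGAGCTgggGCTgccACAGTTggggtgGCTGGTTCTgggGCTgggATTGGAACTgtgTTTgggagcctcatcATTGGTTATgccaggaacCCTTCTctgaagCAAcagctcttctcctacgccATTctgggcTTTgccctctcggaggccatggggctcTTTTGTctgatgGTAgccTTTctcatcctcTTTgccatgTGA
ATP5G3: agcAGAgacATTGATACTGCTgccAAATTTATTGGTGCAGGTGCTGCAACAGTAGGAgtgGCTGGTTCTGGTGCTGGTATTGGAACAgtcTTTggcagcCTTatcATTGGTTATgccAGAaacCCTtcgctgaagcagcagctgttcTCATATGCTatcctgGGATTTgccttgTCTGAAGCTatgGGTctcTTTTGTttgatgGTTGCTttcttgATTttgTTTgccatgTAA
Codons ending in A or T number 28 (36.4%), 30 (39.0%) and 47 (61.0%) of the 77 in ATP5G1, ATP5G2 and ATP5G3. ATP5G1 and ATP5G2 share 51 of the 77 codons and 88.3% of their 231 bases without the stop codon. ATP5G3 shares 36 codons and 80.1% of those bases with either of them. How the authors treated reads that match more than 1 gene is not given in the sources used here, so the split between the 3 genes is uncertain where their bases coincide.
A contrasting sequence is the whole coding sequence of UQCR11, a small subunit of complex III at chr19:1597172-1605490 on the minus strand, chosen after its values were seen because it moved in opposite directions in the 2 sets of lines.
UQCR11: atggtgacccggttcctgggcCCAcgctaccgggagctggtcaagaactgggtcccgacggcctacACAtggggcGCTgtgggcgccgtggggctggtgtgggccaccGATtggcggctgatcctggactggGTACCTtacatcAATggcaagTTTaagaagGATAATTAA
In UQCR11, 10 of the 55 codons between start and stop end in A or T. Across the 41 genes this share ran from 11.3% to 63.3% with a median of 44.0%, beside a median of 40% over 14112 expressed genes. The coding sequences were short, with a median of 136 codons against 485.

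The 41 genes together took 1.03% ± 0.00806 (SD, n = 3) of all assigned reads in the control, 1.02% ± 0.0230 with ZC3H7A and 0.999% ± 0.0331 with ZC3H7B. They took 1.17% ± 0.0761 in Parental and 0.944% ± 0.0265 in the DD-labelled libraries, whose highest library (0.971%) lay below the lowest Parental one (1.08%). By complex, the largest step in reads was in complex V, from 0.558% ± 0.0306 in Parental to 0.402% ± 0.0153. Complex II took 0.0327% ± 0.000194 in the control, 0.0242% ± 0.00161 with ZC3H7A and 0.0282% ± 0.000613 with ZC3H7B, with no overlap between these groups. It stood at 0.0447% ± 0.00354 in Parental and 0.0279% ± 0.000975 in the DD-labelled libraries. The shares were not tested, and Parental replicate 3 was the lowest of its group in every complex. Each share is a sum that a few genes can move. With ZC3H7A, SDHB fell from 7971 to 4647 normalized counts, while log2 changes of SDHA, SDHC and SDHD were -0.01, -0.07 and 0.01. With ZC3H7B, SDHB and SDHD were called lower, and SDHA and SDHC were not called. In the DD-labelled libraries, ATP5B, ATP5G2 and ATP5G3 had log2 changes of -0.67, -1.08 and -1.23. There, 10 of the 15 complex V members were not called.

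**Figure D1:**
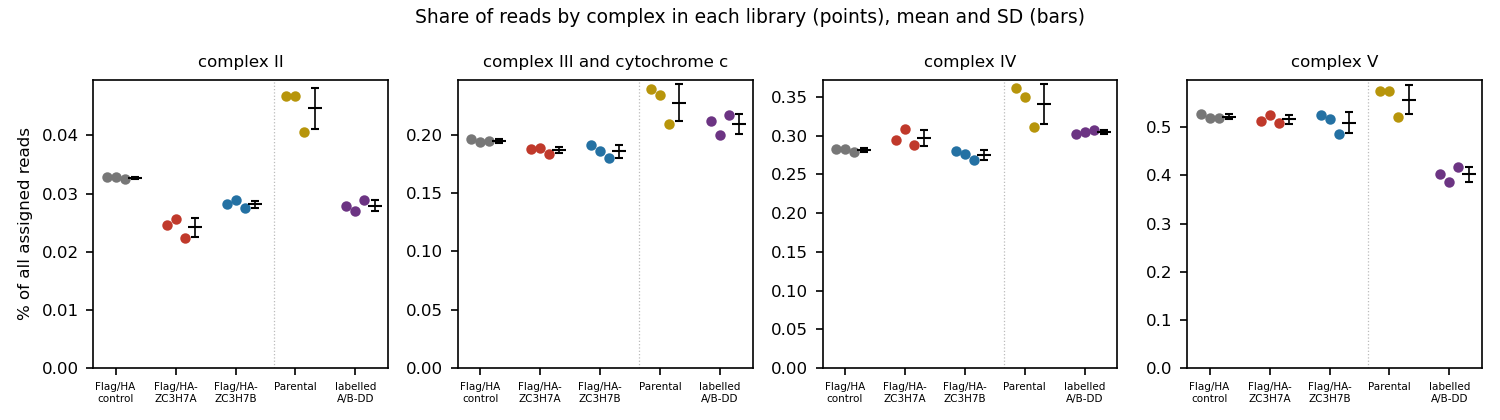
Percent of all assigned reads taken by the subunits of each complex (vertical axes, from 0) in each of the 15 libraries (points) with group mean and SD (bars), where the dotted line parts the 2 sets of lines. The summed share of complex II is lower in both ZC3H7A and ZC3H7B libraries than in the control. That of complex V is lower in the DD-labelled libraries (0.402%) than in Parental (0.558%). Of single genes, 3 of 4 in complex II were not called with ZC3H7A, and 10 of 15 in complex V were not called in the DD-labelled libraries.

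Per codon of coding sequence, which divides by length but corrects for nothing else, footprint levels spanned 2.24 (SDHA) to 239 (COX6B1) normalized counts in the control. The median of the 41 genes was 46.1. COX6B1, an intermembrane-space subunit of complex IV, had the highest level per codon in every group, with 239 ± 3.78 in the control and 287 ± 2.08 in Parental (mean ± SD, n = 3). It was followed in the control by COX7B (184 ± 5.78), COX6C (157 ± 1.61) and UQCRQ (125 ± 1.80), which were apart by more than their SD. NDUFA4 (114 ± 4.47), ATP5I (110.3 ± 0.935) and ATP5B (109 ± 2.72) came next and did not differ beyond their spread. These 7 genes were the ones above 100 in the control. All but ATP5B (529 codons) have short coding sequences, of 69 (ATP5I) to 86 (COX6B1) codons, against 664 in SDHA. Whether the level per codon depends on length was not tested. At the low end stood SDHA (2.24 ± 0.103) and the membrane anchor SDHD (2.75 ± 0.178), so that within complex II the iron-sulfur subunit SDHB (28.5 ± 0.374) had 12.7 times the level per codon of the flavoprotein SDHA it binds. SDHA has 3 pseudogene rows in the table and SDHB has 0. How reads with several positions were counted is not given in the sources used here, so the level of SDHA and this ratio are uncertain. The order differed between the 2 sets: ATP5D stood at 6.02 ± 0.201 in the control and 23.6 ± 2.17 in Parental, and NDUFA4 at 114 ± 4.47 and 49.8 ± 3.38. Lysis, kit, laboratory and line differ between these sets and cannot be told apart.

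**Figure D2:**
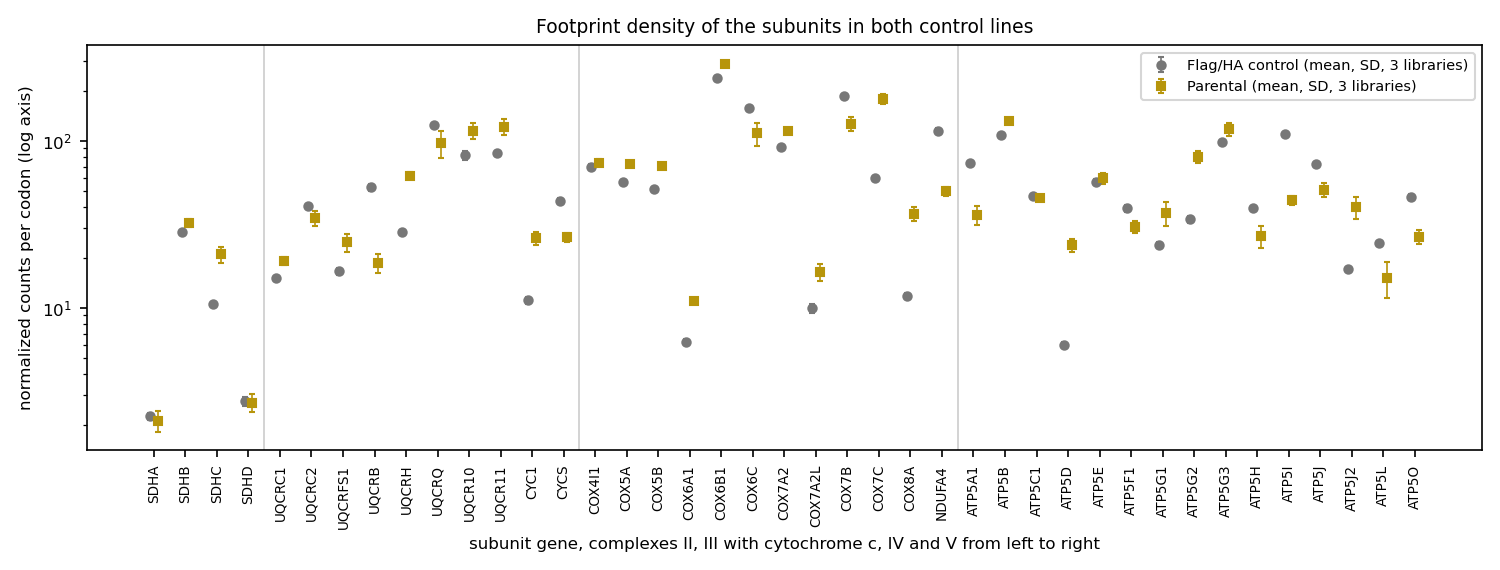
Footprint level per codon of the longest coding sequence (log axis, normalized counts per codon) of each subunit gene (horizontal axis, by complex) in the Flag/HA control and Parental groups, as mean and SD of 3 libraries. COX6B1 is the highest gene and SDHA the lowest in both groups, and ATP5D, COX8A and COX7C sit higher in Parental while NDUFA4, UQCRB and ATP5I sit lower.

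With ZC3H7A, 22 of the 41 genes passed the test (limma, adjusted p under 0.05 over 15599 genes), 4 of them higher and 18 lower. The background was large: 57.5% of all genes tested passed in this comparison, 29.2% higher and 28.2% lower. The share of members called (53.7%) was thus near the background, and 43.9% of the members were lower. Their median log2 change was -0.085, against 0.02 over all genes tested, and changes ran from -0.78 (SDHB) to 0.65 (CYC1). SDHB, CYC1 and ATP5O passed the test with at least a 1.5-fold change (7.32% of members, beside 21.4% of all genes). The libraries did not overlap for 25 members, which is 61.0% against 63.9% of all genes. Under quantile scaling 8 members were called higher and 17 lower. Of the 22 calls, 17 held under all 17 alternatives. COX7B and COX8A lost theirs when ZC3H7A replicate 1 or 3 or control replicate 1 or 2 was left out (COX7B also without control replicate 3), with adjusted p up to 0.438 and 0.122 over the alternatives. ATP5A1, ATP5D and ATP5I lost theirs in 1 fit over all libraries.

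With ZC3H7B, 24 of the 41 genes passed, 6 higher and 18 lower, where 54.3% of all genes tested passed, 28.9% higher and 25.4% lower. The members' share was 58.5%, with 43.9% of them lower, and their median log2 change -0.089 against 0.04 over all genes. CYCS was the 1 member (2.44%) called with at least a 1.5-fold change, beside 18.8% of all genes. The libraries of 24 members did not overlap, which is 58.5% against 61.1%. Quantile scaling gave 8 higher and 12 lower, and 15 of the 24 calls held under all 17 alternatives. UQCRC2, COX7C, ATP5F1, ATP5G3, ATP5H and ATP5J lost theirs under quantile scaling and in 1 fit over all libraries, and ATP5A1, UQCRFS1 and COX7A2L in the latter. Leaving out ZC3H7B replicate 3 moved the median to -0.049. The ZC3H7A and ZC3H7B comparisons share the control libraries, so their values are given side by side below. Compared directly, 18 members differed between ZC3H7A and ZC3H7B, 10 higher and 8 lower with ZC3H7A, beside 36.6% of all genes (18.4% higher, 18.2% lower). That is 43.9% of the members, with a median log2 difference of 0.050 (-0.01 over all genes), and 11 of these 18 calls held under all alternatives. The libraries of 15 members did not overlap (36.6%, beside 43.7% of all genes). CYC1 was the 1 member called there with at least a 1.5-fold difference, beside 9.47% of all genes.

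In the DD-labelled libraries, 12 of the 41 genes passed, all 12 lower, where 24.5% of the 17092 genes tested passed, 11.0% higher and 13.5% lower. The members' share was 29.3%. Higher calls numbered 0 with limma, edgeR and DESeq2 alike, while SDHA and CYC1 (2 members) were higher at an unadjusted p under 0.05 with limma. The median log2 change was -0.15, against 0.02 over all genes, and changes ran from -1.23 (ATP5G3) to 0.34 (SDHA). SDHB, ATP5B, ATP5G2 and ATP5G3 were called with at least a 1.5-fold change (9.76% of members, beside 12.8% of all genes). The libraries of 17 members did not overlap, 16 of them lower and CYC1 higher, which is 41.5% against 40.8% of all genes (21.2% lower, 19.6% higher). The count depended on single libraries. It was 6 without Parental replicate 1, without Parental replicate 2 or without ZC3H7A/B-DD replicate 3, and 7 without ZC3H7A/B-DD replicate 2. Without Parental replicate 3 it was 17, with 1 member (SDHA) called higher (log2 change 0.45, adjusted p = 0.00925). SDHB, UQCRH, UQCR11, ATP5B, ATP5G2 and ATP5G3 were called lower under all 17 alternatives. UQCRC1, CYCS, COX5A, COX8A, ATP5E and ATP5F1 each lost their call without Parental replicate 1, Parental replicate 2 or ZC3H7A/B-DD replicate 3 (all but COX8A also without replicate 2 of that group, UQCRC1 and CYCS also without its replicate 1), with adjusted p up to 0.123, 0.0919, 0.156, 0.0832, 0.0861 and 0.194 over the alternatives.

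**Figure D3:**
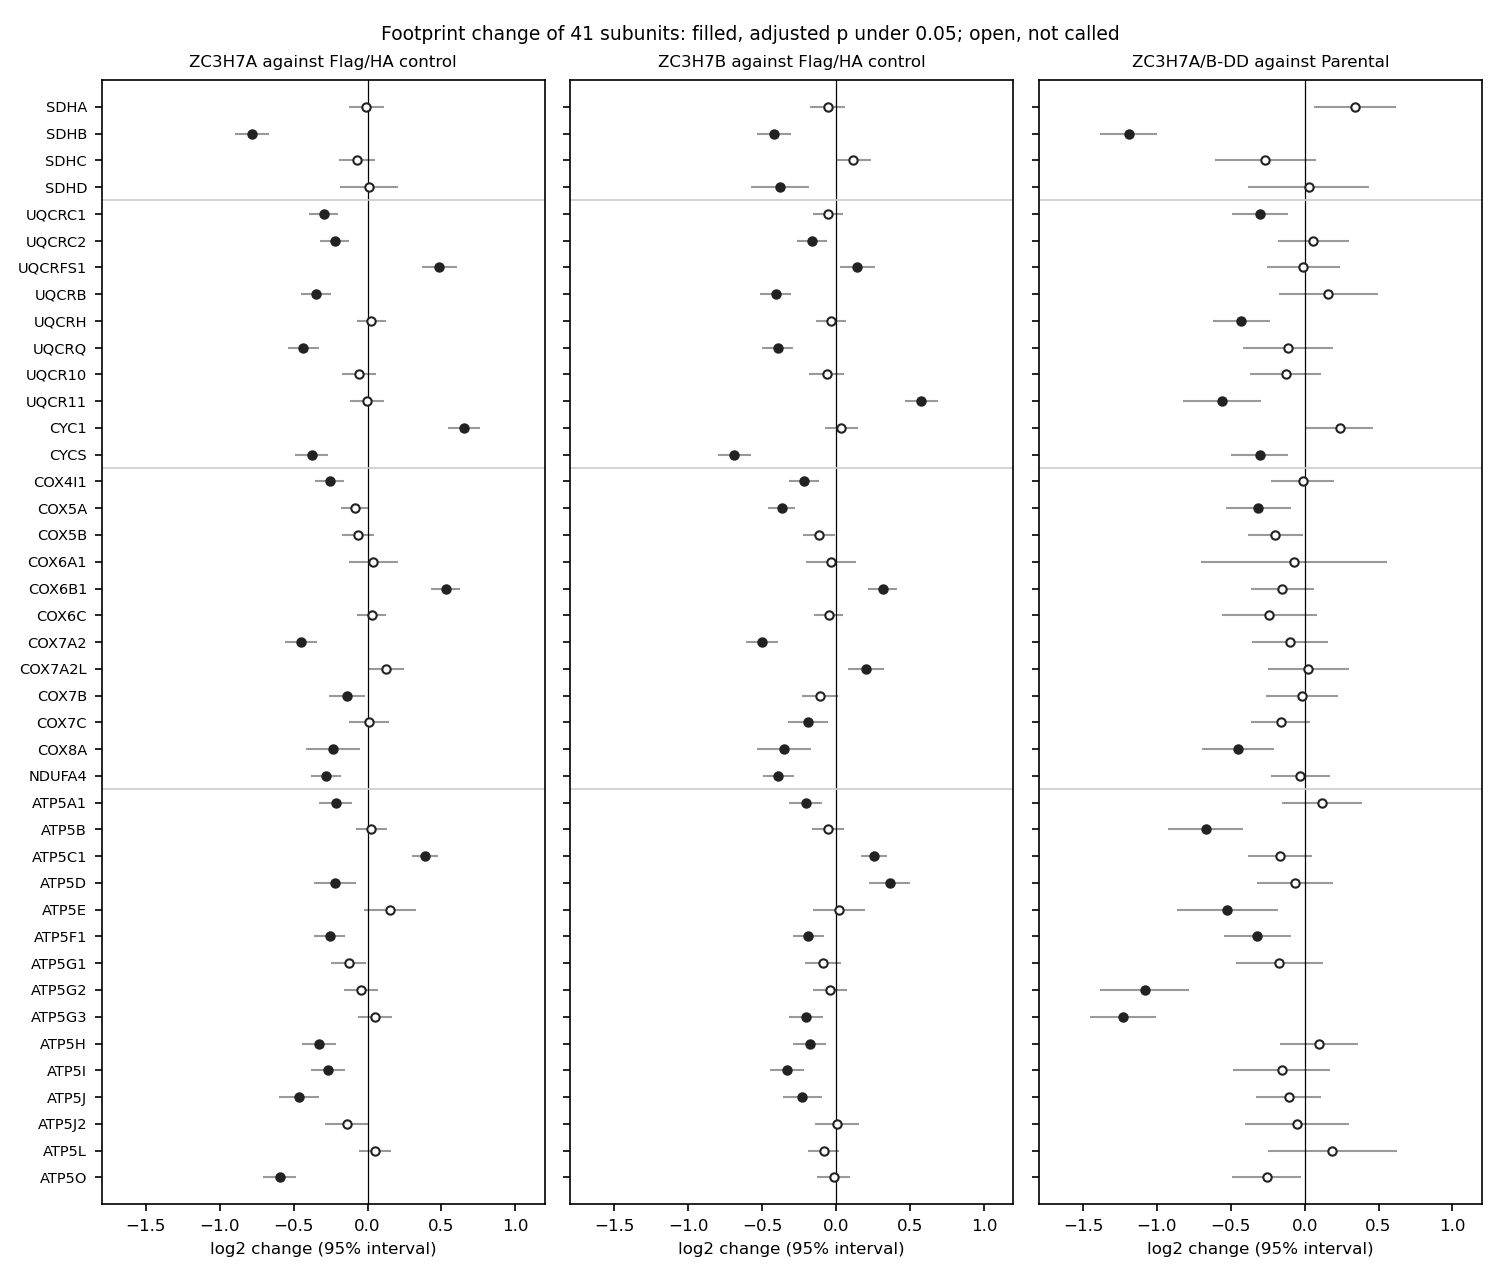
Log2 change (horizontal axes, with 95% interval) of each of the 41 subunit genes (rows, by complex) with ZC3H7A, with ZC3H7B and in the DD-labelled libraries, filled where the adjusted p is under 0.05. Filled points lie to both sides of 0 with ZC3H7A (4 higher, 18 lower) and ZC3H7B (6 higher, 18 lower), and on the lower side, 12 of 12, in the third panel, whose intervals are wider.

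In complex II, SDHB was the 1 member that passed in all 4 comparisons. SDHB holds the iron-sulfur clusters that carry electrons from SDHA to the membrane anchors SDHC and SDHD, and lies at chr1:17018722-17054170 in GRCh38 on the minus strand. It read 8090.2, 7896 and 7926 normalized counts in the control, 4849.9, 4931 and 4160.4 with ZC3H7A and 6073, 6229 and 5575 with ZC3H7B. The 3 groups did not overlap. SDHB fell by 41.9% with ZC3H7A (log2 change -0.78, SE 0.056, adjusted p = 3.73e-11, limma) and by 25.3% with ZC3H7B (log2 change -0.42, SE 0.056, adjusted p = 8.35e-07), and was lower with ZC3H7A than with ZC3H7B (log2 change -0.36, SE 0.056, adjusted p = 1.33e-05). It also read 9372, 9311 and 8492 in Parental and 4134, 3995 and 3766 in the DD-labelled libraries, where it fell by 56.2% without overlap (log2 change -1.19, SE 0.086, adjusted p = 4.42e-05).

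SDHA passed in none of the comparisons, and SDHC and SDHD in some. The catalytic flavoprotein SDHA read 1565, 1457 and 1437 in the control, 1435, 1539.7 and 1454 with ZC3H7A and 1441, 1502 and 1345 with ZC3H7B, and these overlapped (log2 changes -0.01 and -0.06, adjusted p = 0.903 and 0.428). It read 1238, 1342 and 1624 in Parental and 1572, 1955 and 1781 in the DD-labelled libraries, overlapping groups whose log2 change of 0.34 had an adjusted p of 0.0738. Per codon, the ratio of SDHB to SDHA was 12.7 ± 0.422 (SD, n = 3) in the control, 7.46 ± 0.624 with ZC3H7A and 9.89 ± 0.0922 with ZC3H7B. It was 15.6 ± 2.87 in Parental and 5.37 ± 0.759 in the DD-labelled libraries. This pair was chosen after its values were seen, and the ratio was not tested. Of the anchors, SDHD read 454, 453 and 405 in the control, 453, 469 and 400.4 with ZC3H7A and 336, 307 and 367 with ZC3H7B. SDHD fell with ZC3H7B (log2 change -0.38, SE 0.094, adjusted p = 0.00156) and was higher with ZC3H7A than with ZC3H7B (log2 change 0.39, SE 0.094, adjusted p = 0.00207), a difference that did not pass in 1 fit over all libraries (adjusted p = 0.0647). SDHC read 1781, 1788 and 1775 in the control, 1659, 1876 and 1559.8 with ZC3H7A and 1933, 1985 and 1882 with ZC3H7B. It was lower with ZC3H7A than with ZC3H7B (log2 change -0.19, SE 0.059, adjusted p = 0.0127). That call was lost without ZC3H7A replicate 3 (log2 change -0.13, adjusted p = 0.0860) or ZC3H7B replicate 2 (log2 change -0.17, adjusted p = 0.0553). Reads assigned to 3 SDHA pseudogenes came to 2.62% to 10.2% of those of SDHA, the second highest such share among the members after COX6A1 (up to 27.6%).

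In complex III with cytochrome c, 2 members rose and 5 fell with ZC3H7A, 2 rose and 4 fell with ZC3H7B, and 4 fell in the DD-labelled libraries. That is 70%, 60% and 40% of its 10 genes, beside 57.5%, 54.3% and 24.5% of all genes tested. The 2 that rose with ZC3H7A code for the subunits that hold cytochrome c1's haem and the Rieske iron-sulfur cluster. CYC1, cytochrome c1, read 3785, 3539 and 3471 in the control, 6143, 5650.2 and 5199.9 with ZC3H7A and 3705, 3708 and 3649 with ZC3H7B. CYC1 was 57.2% higher with ZC3H7A (log2 change 0.65, SE 0.053, adjusted p = 3.32e-10), overlapped the control with ZC3H7B (log2 change 0.04, adjusted p = 0.589), and differed between the 2 lines (log2 change 0.62, SE 0.053, adjusted p = 1.67e-09). Its Parental values of 8908, 8959.8 and 7641 all lay below the 9447, 9926 and 10624 of the DD-labelled libraries, a log2 change of 0.24 that did not pass (adjusted p = 0.114). UQCRFS1, the Rieske iron-sulfur protein, read 4762, 4303 and 4566 in the control, 6490.2, 6331 and 6268 with ZC3H7A and 5142, 5455 and 4498 with ZC3H7B. It rose with ZC3H7A (log2 change 0.49, SE 0.056, adjusted p = 9.76e-08) without overlap and was higher there than with ZC3H7B (log2 change 0.34, SE 0.056, adjusted p = 2.99e-05). Its rise with ZC3H7B (log2 change 0.14, SE 0.056, adjusted p = 0.0344) came from overlapping libraries and was lost with edgeR and DESeq2, and without control replicate 2 (log2 change 0.11, adjusted p = 0.179), control replicate 3 (log2 change 0.15, adjusted p = 0.0708), ZC3H7B replicate 1 (log2 change 0.13, adjusted p = 0.109) or ZC3H7B replicate 2 (log2 change 0.08, adjusted p = 0.243).

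The core subunit UQCRC1, by contrast, read 7307, 7256 and 7146 in the control, 5853, 6055 and 5763 with ZC3H7A and 7265, 7264 and 6408 with ZC3H7B. It fell with ZC3H7A (log2 change -0.30, SE 0.048, adjusted p = 1.23e-05) and was lower there than with ZC3H7B (log2 change -0.24, SE 0.048, adjusted p = 2.77e-04). The per-codon ratio of CYC1 to UQCRC1 was 0.734 ± 0.0267 in the control, 1.42 ± 0.115 with ZC3H7A and 0.783 ± 0.0505 with ZC3H7B, a pair chosen after its values were seen and not tested. Among the small subunits, UQCRQ read 10313, 10297 and 10049.5 in the control, 7465, 8092 and 7141 with ZC3H7A and 7990.2, 8119 and 7246 with ZC3H7B. UQCRQ fell in both (log2 changes -0.44 and -0.39, adjusted p = 9.61e-08 and 5.00e-07). UQCRB read 8926, 8111 and 8384 in the control, 6528, 7025 and 6411 with ZC3H7A and 6753, 6364 and 6021 with ZC3H7B. UQCRB, whose libraries likewise lay below the control, also fell in both, by 0.35 and 0.41 on the log2 scale (adjusted p = 2.68e-06 and 2.83e-07). The other core subunit, UQCRC2, fell by less (log2 changes -0.22 and -0.16, adjusted p = 3.87e-04 and 0.00585), and UQCR10 passed in none of the comparisons.

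UQCR11, whose sequence is shown above, read 4869, 4742 and 4548 in the control and 4652, 4450 and 5022 with ZC3H7A, which overlapped, and 7554, 6464 and 7140.1 with ZC3H7B, all above the control. It rose by 49.2% with ZC3H7B (log2 change 0.58, SE 0.055, adjusted p = 4.47e-09), and differed between the ZC3H7A and ZC3H7B libraries (log2 change -0.58, SE 0.055, adjusted p = 7.10e-09). UQCR11 read 7574, 6815 and 6045 in Parental and 4821, 4026 and 5008 in the DD-labelled libraries, and fell by 32.2% there (log2 change -0.56, SE 0.12, adjusted p = 0.00916). UQCRH, the hinge protein that joins cytochrome c1 to its partner, read 5831, 5726 and 5308 in Parental and 4442, 4023 and 4061 in the DD-labelled libraries. It fell there without overlap (log2 change -0.43, SE 0.085, adjusted p = 0.00739), while its log2 changes with ZC3H7A and ZC3H7B were 0.03 and -0.04 and did not pass. CYCS, cytochrome c itself, is the soluble carrier between complexes III and IV. CYCS read 4694, 4728 and 4379.8 in the control, 3423, 3696 and 3504 with ZC3H7A and 3100.3, 2834 and 2640.1 with ZC3H7B, 3 groups that did not overlap. It fell by 23.0% with ZC3H7A (log2 change -0.38, SE 0.054, adjusted p = 2.49e-06) and by 38.0% with ZC3H7B (log2 change -0.69, SE 0.054, adjusted p = 2.18e-10), further with ZC3H7B (log2 change 0.31, SE 0.054, adjusted p = 6.39e-05, ZC3H7A against ZC3H7B). In the other set it read 2799, 2602 and 2958 in Parental and 2337, 2134 and 2291 in the DD-labelled libraries (log2 change -0.30, SE 0.086, adjusted p = 0.0310). CYCS has 39 pseudogene rows in the table, with 0.836% to 5.35% of its own reads.

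In complex IV, 1 member rose and 5 fell with ZC3H7A, 2 rose and 6 fell with ZC3H7B, and 2 fell in the DD-labelled libraries. These are 50%, 66.7% and 16.7% of its 12 genes, beside 57.5%, 54.3% and 24.5% of all genes tested. COX6B1, already the member with the highest level per codon, read 20611, 20853 and 20209.5 normalized counts in the control, 30434, 30882 and 27713 with ZC3H7A and 26300, 25775 and 24713 with ZC3H7B. The 3 groups did not overlap. It rose by 44.2% with ZC3H7A (log2 change 0.53, SE 0.047, adjusted p = 1.71e-09) and by 24.5% with ZC3H7B (log2 change 0.32, SE 0.047, adjusted p = 5.11e-06), and was higher with ZC3H7A (log2 change 0.21, SE 0.047, adjusted p = 9.62e-04). In Parental it read 24823, 24681 and 24467, above the 21463, 22477 and 22699.8 of the DD-labelled libraries (log2 change -0.15, adjusted p = 0.274, not passed). The small transmembrane subunit COX7A2 read 10807, 10542 and 10404 in the control, 7519.9, 8060.3 and 7659.6 with ZC3H7A and 8217, 7476 and 6814 with ZC3H7B. COX7A2 fell in both without overlapping the control (log2 changes -0.45 and -0.50, adjusted p = 1.32e-07 and 2.87e-08). Its relative COX7A2L, which takes part in joining complexes III and IV into supercomplexes, read 1138, 1208 and 1064 in the control, 1228, 1223 and 1264 with ZC3H7A and 1315, 1264 and 1348 with ZC3H7B. COX7A2L rose with ZC3H7B (log2 change 0.20, SE 0.059, adjusted p = 0.00505), a call lost without control replicate 3 (log2 change 0.16, adjusted p = 0.0519), and its change with ZC3H7A was 0.13 (adjusted p = 0.0737). In the other set neither passed. COX7A2 read 13187, 13323 and 13176 in Parental and 10806, 14389.9 and 12099.8 in the DD-labelled libraries, which overlapped. COX7A2L read 1943, 2059.7 and 1633 and, in the DD-labelled libraries, 2180.2, 1846 and 1703, which overlapped as well.

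NDUFA4, long counted with complex I and now placed in complex IV, read 9659, 8954 and 9163 in the control, 7502, 8289 and 7108 with ZC3H7A and 6946, 7119 and 7105 with ZC3H7B. It fell in both (log2 changes -0.28 and -0.39, adjusted p = 4.18e-05 and 5.19e-07). COX5A, a matrix-side subunit, read 8981, 8561 and 8528 in the control, 8050.2, 8642 and 7901 with ZC3H7A and 6949, 6695 and 6539 with ZC3H7B. COX5A fell with ZC3H7B (log2 change -0.37, SE 0.045, adjusted p = 2.67e-07) and was higher with ZC3H7A than with ZC3H7B (log2 change 0.28, SE 0.045, adjusted p = 2.00e-05). It read 11558, 11147 and 10681 in Parental and 9908, 8588 and 8432 in the DD-labelled libraries (log2 change -0.31, SE 0.096, adjusted p = 0.0434), without overlap. COX8A, another small subunit, read 2569, 2719 and 2244 in Parental and 1864, 2012 and 1629.7 there, also without overlap (log2 change -0.45, SE 0.11, adjusted p = 0.0166). COX8A stood at 813, 847 and 776 in the control, 661, 775 and 638 with ZC3H7A and 591, 586 and 742 with ZC3H7B, and fell with both (log2 changes -0.24 and -0.35, adjusted p = 0.0265 and 0.00177). COX4I1 also fell with ZC3H7A and ZC3H7B, COX7B with ZC3H7A and COX7C with ZC3H7B, by 0.14 to 0.26 on the log2 scale. The call of COX7C was lost without control replicate 1 or 2 or ZC3H7B replicate 2 or 3 (adjusted p up to 0.319 over all alternatives). COX5B, COX6A1 and COX6C passed in none of the comparisons with a control, with log2 changes from -0.24 to 0.04.

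**Figure D4:**
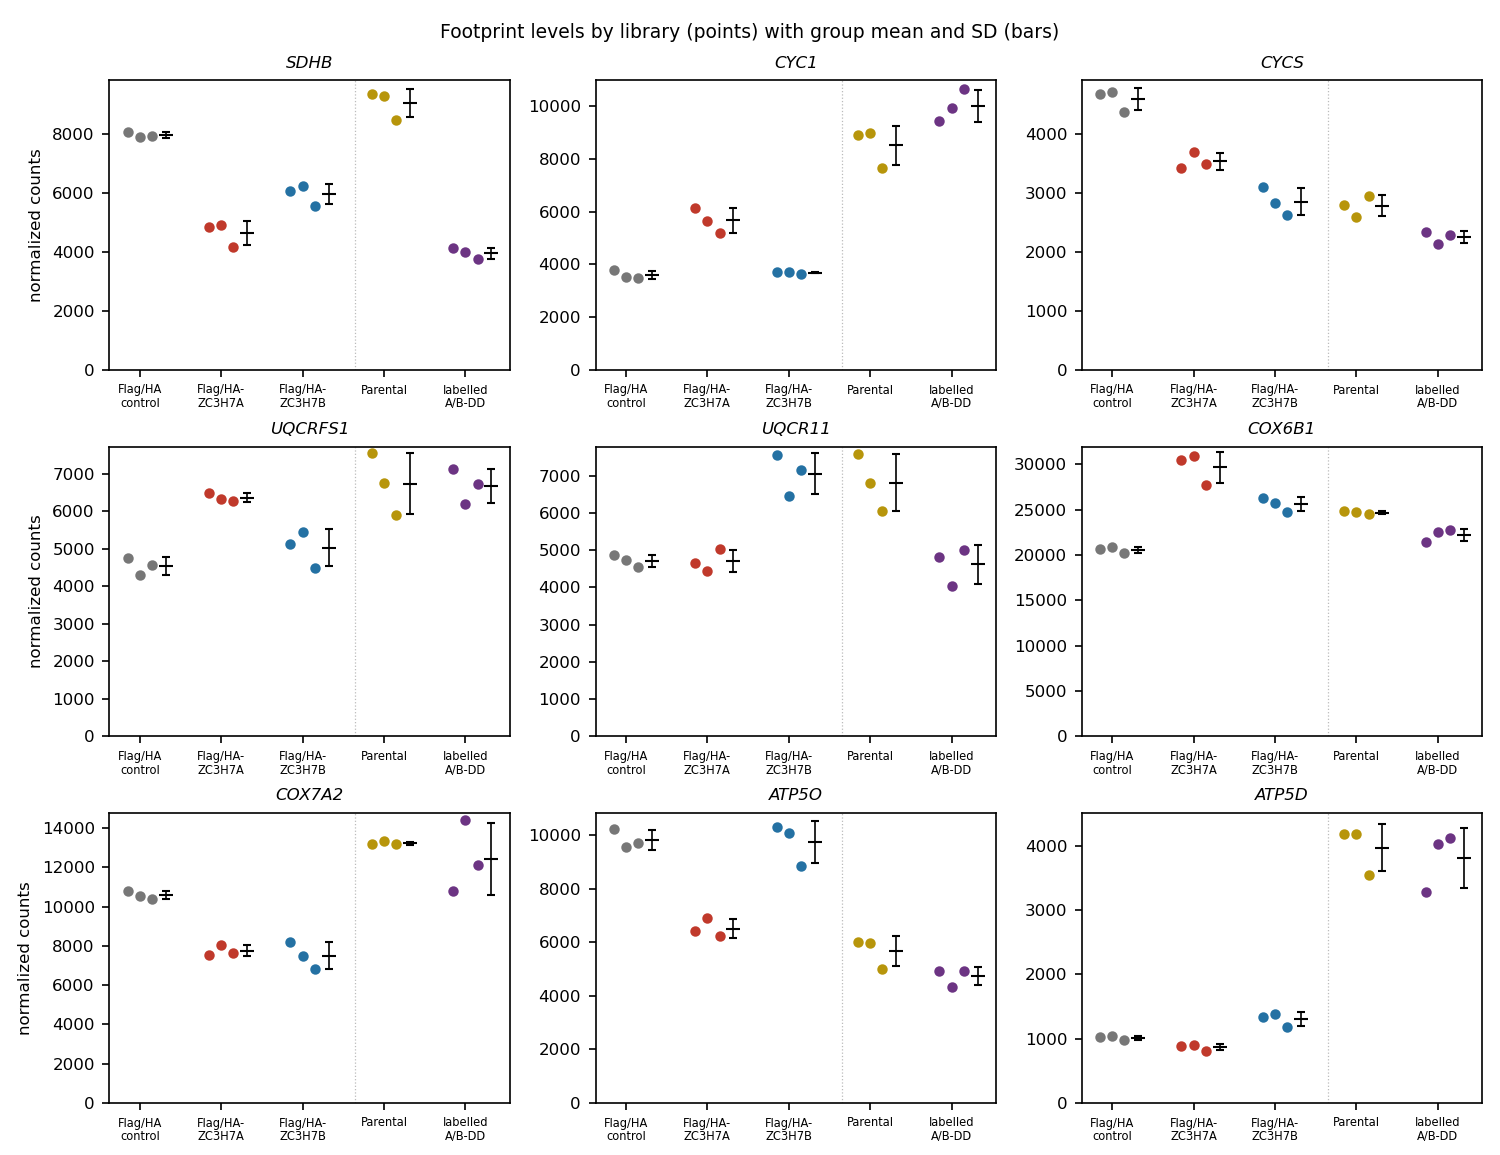
Normalized counts (vertical axes, from 0) of 9 subunit genes in each of the 15 libraries (points) with group mean and SD (bars), where the dotted line parts the 2 sets of lines. SDHB and CYCS are lower in every ZC3H7A, ZC3H7B and ZC3H7A/B-DD library than in the matching controls, CYC1 and UQCRFS1 are highest among the Flag/HA groups with ZC3H7A, and UQCR11 is high with ZC3H7B and low in the DD-labelled libraries.

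In complex V, 1 member rose and 7 fell with ZC3H7A, 2 rose and 6 fell with ZC3H7B, and 5 fell in the DD-labelled libraries. Of its 15 genes 53.3%, 53.3% and 33.3% were thus called, beside 57.5%, 54.3% and 24.5% of all genes tested. The catalytic head is built from alpha (ATP5A1) and beta (ATP5B) subunits around the rotating gamma subunit (ATP5C1), with delta (ATP5D) and epsilon (ATP5E) at its foot. ATP5C1 read 13985, 13799.5 and 13888 in the control, 17746, 18543 and 18229 with ZC3H7A and 16975, 16844 and 15916 with ZC3H7B. ATP5C1 rose without overlap by 30.8% with ZC3H7A (log2 change 0.39, SE 0.042, adjusted p = 4.19e-08) and by 19.3% with ZC3H7B (log2 change 0.25, SE 0.042, adjusted p = 1.99e-05). It was also higher with ZC3H7A than with ZC3H7B (log2 change 0.13, SE 0.042, adjusted p = 0.0161), a call lost without ZC3H7A replicate 2 (log2 change 0.12, adjusted p = 0.0642). ATP5A1 read 41676, 39598 and 40168 in the control, 34537, 36764 and 33330.2 with ZC3H7A and 35958, 37262 and 32302 with ZC3H7B. ATP5A1 fell in both (log2 changes -0.22 and -0.21, adjusted p = 0.00139 and 0.00236). ATP5D read 1023, 1037 and 973 in the control, 889, 907 and 809.9 with ZC3H7A and 1337, 1387 and 1182 with ZC3H7B. It fell with ZC3H7A (log2 change -0.22, SE 0.067, adjusted p = 0.00746), rose with ZC3H7B (log2 change 0.36, SE 0.067, adjusted p = 7.78e-05) and differed between them (log2 change -0.58, SE 0.067, adjusted p = 2.13e-07).

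ATP5B, the beta subunit, was chosen for full values after they were seen. It read 68798, 69586 and 70246 in Parental and 43432, 44749.7 and 43098 in the DD-labelled libraries, and fell there by 37.1% (log2 change -0.67, SE 0.11, adjusted p = 0.00341). In the Flag/HA set it read 59164, 56696 and 56655 in the control, 59264, 58903 and 57325 with ZC3H7A and 58776, 55767 and 51651 with ZC3H7B, with log2 changes of 0.02 with ZC3H7A and -0.06 with ZC3H7B that did not pass. ATP5A1, its partner in the head, read 17782, 19258 and 22860.2 in Parental and 22337, 20169.5 and 22152 in the DD-labelled libraries, which overlapped (log2 change 0.12, adjusted p = 0.509). Per codon, ATP5B stood at 3.68 ± 0.425 times ATP5A1 in Parental (SD, n = 3) and 2.13 ± 0.165 times in the DD-labelled libraries. The same ratio was 1.49 ± 0.0112 in the control, 1.76 ± 0.0699 with ZC3H7A and 1.65 ± 0.0749 with ZC3H7B, a pair chosen after its values were seen and not tested.

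Of the stalk, which holds the head still, ATP5O (the oligomycin sensitivity-conferring protein) read 10231, 9549 and 9689.9 in the control, 6407, 6908 and 6224 with ZC3H7A and 10299.8, 10063 and 8839 with ZC3H7B. ATP5O fell by 33.7% with ZC3H7A (log2 change -0.59, SE 0.054, adjusted p = 1.98e-09), overlapped the control with ZC3H7B (log2 change -0.02), and differed between the 2 lines (log2 change -0.58, SE 0.054, adjusted p = 6.29e-09). ATP5J, coupling factor 6, read 8759, 8875 and 8393 in the control, 5700.2, 6862 and 6359 with ZC3H7A and 7885, 7854 and 6548 with ZC3H7B. It fell in both (log2 changes -0.46 and -0.23, adjusted p = 1.38e-06 and 0.00416). The membrane subunit e, ATP5I, read 7685, 7583 and 7565 in the control, 6295, 6405 and 6290.2 with ZC3H7A and 6578, 6280.4 and 5348 with ZC3H7B, and fell in both as well (log2 changes -0.27 and -0.33, adjusted p = 2.35e-04 and 1.88e-05). The stalk subunits b (ATP5F1) and d (ATP5H) fell with ZC3H7A and with ZC3H7B by 0.18 to 0.33 on the log2 scale, and the call of ATP5H with ZC3H7B was lost without ZC3H7B replicate 3 (adjusted p up to 0.477 over all alternatives). In the DD-labelled libraries, ATP5F1 and ATP5E fell (log2 changes -0.32 and -0.52, adjusted p = 0.0458 and 0.0338), and ATP5H, ATP5I, ATP5J, ATP5J2 and ATP5L did not pass. ATP5O did not pass there either (log2 change -0.26, adjusted p = 0.0968), although its 3 libraries, at 4944, 4338 and 4916, lay below the 6000, 5989 and 5018 of Parental. ATP5E, ATP5J2 and ATP5L did not pass with ZC3H7A or ZC3H7B, at log2 changes from -0.14 to 0.15.

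ATP5G3 and ATP5G2, 2 of the 3 genes of subunit c, had, with SDHB, the 3 lowest log2 changes of all members in the DD-labelled libraries. ATP5G3 read 17846, 17312 and 14937 in Parental and 7312, 6753 and 7220.1 there, and fell by 57.4% (log2 change -1.23, SE 0.100, adjusted p = 7.75e-05). ATP5G2 read 16500.3, 16716 and 14417 in Parental and 7799, 6179.7 and 8678 in the DD-labelled libraries, and fell by 52.8% (log2 change -1.08, SE 0.13, adjusted p = 7.30e-04). For both, every library lay below every Parental one. ATP5G1 read 5642, 5323 and 4105 in Parental and 4343, 4064 and 4889 in the DD-labelled libraries, groups that overlapped, with a log2 change of -0.17 (95% interval -0.46 to 0.12, adjusted p = 0.370). Whether ATP5G1 changed less than its relatives was not tested. Summed over the 3 genes, subunit c stood at 37600 ± 3599.7 normalized counts in Parental (SD, n = 3) and 19080 ± 1923 in the DD-labelled libraries, and the share of ATP5G1 in this sum at 13.3% ± 0.941 and 23.3% ± 0.826. These sums and shares were chosen after the values were seen.

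In the Flag/HA set the subunit c genes stayed closer to their control. ATP5G3 read 14034, 13865 and 13901 in the control, 14653, 14394 and 14157 with ZC3H7A and 12874, 12915 and 10641 with ZC3H7B. It fell with ZC3H7B (log2 change -0.20, SE 0.056, adjusted p = 0.00339), with a log2 change of -0.11 without ZC3H7B replicate 3 (adjusted p = 0.0120) and no call under quantile scaling (log2 change -0.10, adjusted p = 0.0514). It was higher with ZC3H7A than with ZC3H7B (log2 change 0.25, SE 0.056, adjusted p = 8.75e-04; log2 change 0.16 without ZC3H7B replicate 3), and did not pass with ZC3H7A (log2 change 0.05). ATP5G2 read 7033, 6594 and 6468 in the control, 6656, 6807 and 6027 with ZC3H7A and 7096, 6259 and 6179 with ZC3H7B. Its log2 changes of -0.05 and -0.04 did not pass, and under quantile scaling they were 0.082 and 0.088. ATP5G1 read 3366, 3136 and 3172 in the control, 2879, 3237 and 2751 with ZC3H7A and 3144, 3136 and 2819 with ZC3H7B, with log2 changes of -0.13 and -0.09 that did not pass. The sum of the 3 genes was 23856 ± 499.96 in the control, 23853 ± 806 with ZC3H7A and 21688 ± 1819 with ZC3H7B.

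**Figure D5:**
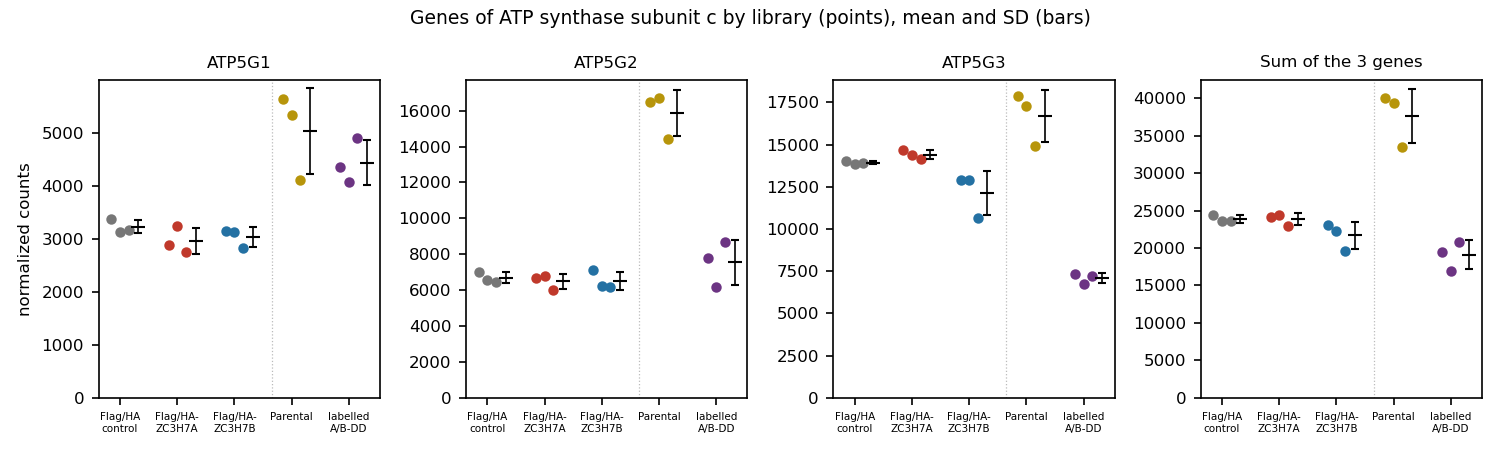
Normalized counts (vertical axes, from 0) of ATP5G1, ATP5G2, ATP5G3 and their sum in each of the 15 libraries (points) with group mean and SD (bars), where the dotted line parts the 2 sets of lines. ATP5G2, ATP5G3 and the sum are lower in all DD-labelled libraries than in Parental, with sums of 19080 and 37600, while ATP5G1 overlaps.

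Between the 2 sets of lines, which share no libraries, 5 genes were lower both with ZC3H7A and in the DD-labelled libraries. They are SDHB, UQCRC1, CYCS, COX8A and ATP5F1, or 27.8% of the 18 lower with ZC3H7A and 41.7% of the 12 lower in the other set. Over the 14220 genes tested in both fits, the genes lower in both were 19.2% and 36.8% of the corresponding lists. Of these 5, SDHB kept its call under all alternatives in both comparisons. Lower with ZC3H7B and in the DD-labelled libraries were 6 genes, namely SDHB, CYCS, COX5A, COX8A, ATP5F1 and ATP5G3 (33.3% and 50% of each list, beside 16.9% and 29.4% over all genes). Again SDHB alone of the 6 kept its call under all alternatives in both comparisons. UQCR11 was higher with ZC3H7B and lower in the DD-labelled libraries. Across the 41 genes, which are not independent replicates, the log2 changes with ZC3H7A and in the DD-labelled libraries had r = 0.17 and rho = 0.03. For ZC3H7B the values were r = 0.03 and rho = -0.03. The share of codons ending in A or T had r = -0.15 with the change with ZC3H7A, -0.34 with ZC3H7B and -0.01 in the DD-labelled libraries, all over the same 41 genes and given as description.

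The genes of other lists around these complexes were read in the same fits. Over all genes tested, 29.2% were higher and 28.2% lower with ZC3H7A, and 28.9% and 25.4% with ZC3H7B. In the DD-labelled libraries, 11.0% were higher and 13.5% lower. These shares stand beside the counts of every list here and below, and no list was tested as a set. Of the 6 mitochondrially encoded subunits of complexes III to V, 3 rose with ZC3H7A and 5 with ZC3H7B, and 3 fell in the DD-labelled libraries. MT-ATP6, a complex V subunit, read 20965, 23765 and 23235 in the control, 28477, 29478 and 30029 with ZC3H7A and 30107, 30572 and 37369.7 with ZC3H7B. MT-ATP6 rose in both (log2 changes 0.37 and 0.52, adjusted p = 2.57e-05 and 2.67e-07). MT-CO1, the catalytic core of complex IV, read 52704, 57803 and 39579 in Parental and 29317, 20154 and 25989.7 in the DD-labelled libraries, and fell without overlap (log2 change -0.99, SE 0.18, adjusted p = 0.00510). MT-ATP8 was lower with ZC3H7A than with ZC3H7B (log2 difference -0.38, adjusted p = 0.0115). These mRNAs are translated inside mitochondria by other ribosomes, which cycloheximide does not stop, and cycloheximide was in 1 of the 2 lysis buffers.

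Of 37 nuclear-encoded complex I subunits, 9 rose and 15 fell with ZC3H7A, 10 rose and 14 fell with ZC3H7B, and 7 fell in the DD-labelled libraries. NDUFB7 rose with ZC3H7A and ZC3H7B (log2 changes 0.37 and 0.53), NDUFS6 fell with ZC3H7A from 8945 ± 101 to 4692 ± 146 (log2 change -0.93, SE 0.051, adjusted p = 4.89e-13), and NDUFB5 fell with ZC3H7B (log2 change -0.74, SE 0.049, adjusted p = 9.87e-12). NDUFS7 fell in the DD-labelled libraries (log2 change -0.54, SE 0.096, adjusted p = 0.00446). Of 17 genes of pyruvate dehydrogenase and the citric acid cycle, which feed the chain with electrons, 2 rose and 14 fell with ZC3H7A, 1 rose and 11 fell with ZC3H7B, and 1 rose and 2 fell in the DD-labelled libraries. SUCLG2, a subunit of succinyl-CoA ligase, fell with ZC3H7A and ZC3H7B (log2 changes -0.49 and -0.70, adjusted p = 3.01e-07 and 1.15e-09). CS, citrate synthase, rose with both (log2 changes 0.23 and 0.19, adjusted p = 1.58e-04 and 0.00113) and fell in the DD-labelled libraries (log2 change -0.65, SE 0.11, adjusted p = 0.00344), where SUCLA2 rose (log2 change 0.48, SE 0.092, adjusted p = 0.00672).

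Of 38 assembly factors of complexes II to V that were tested, 13 rose and 11 fell with ZC3H7A, 12 rose and 12 fell with ZC3H7B, and 3 rose and 12 fell in the DD-labelled libraries. SDHAF1, which helps place iron-sulfur clusters in SDHB, read 176, 178 and 176 in the control and 317, 313 and 325 with ZC3H7A. SDHAF1 rose (log2 change 0.85, SE 0.100, adjusted p = 1.32e-07). SURF1, an assembly factor of complex IV, fell with ZC3H7A (log2 change -0.72, SE 0.069, adjusted p = 4.99e-09). With ZC3H7B, UQCC1 rose (log2 change 0.46) and LYRM7 fell (log2 change -0.64), both factors of complex III, and LYRM7 and COX19 differed between the 2 lines (log2 differences 0.54 and -0.74). In the DD-labelled libraries, BCS1L, which inserts the Rieske protein into complex III, fell (log2 change -0.81, SE 0.081, adjusted p = 2.43e-04), and HCCS, which attaches haem to cytochrome c, rose (log2 change 0.63, SE 0.096, adjusted p = 0.00216). Among other subunits and the inhibitor of ATP synthase, ATPIF1, which blocks the reverse reaction, read 9518, 9103 and 9153 in the control, 4769.6, 4961 and 4888 with ZC3H7A and 9891, 10069.8 and 8679 with ZC3H7B. ATPIF1 fell with ZC3H7A (log2 change -0.93, SE 0.050, adjusted p = 3.34e-13) and in the DD-labelled libraries (log2 change -0.56, SE 0.095, adjusted p = 0.00347), and differed between ZC3H7A and ZC3H7B (log2 change -0.97, SE 0.050, adjusted p = 3.46e-13). C14orf2 rose with ZC3H7A and ZC3H7B (log2 changes 0.45 and 0.42), and USMG5 fell with ZC3H7B (log2 change -0.35).

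Of 13 transcription regulators of respiratory genes, 6 rose and 5 fell with ZC3H7A, 5 rose and 3 fell with ZC3H7B, and 1 rose and 4 fell in the DD-labelled libraries. PPARGC1B, a coactivator of mitochondrial genes, rose with ZC3H7A from 829 ± 46.4 to 1598 ± 123 (log2 change 0.95, SE 0.063, adjusted p = 1.17e-11), and TFB2M fell (log2 change -0.44, SE 0.061, adjusted p = 1.61e-06). YY1 rose and GABPA, a subunit of an ETS-family activator, fell with ZC3H7B (log2 changes 0.62 and -0.44). PPRC1 fell and TFB2M rose in the DD-labelled libraries (log2 changes -0.75 and 0.49). In RefSeq's windows of GRCh38.p14, placed around a start given by that source, 32 of the 41 members had an entry. That start can differ from the GENCODE start. The windows of UQCRC1, COX4I1 and COX7A2L, among others, lie inside the GENCODE span of the gene (COX7A2L: window 42361168-42361467, gene 42333546-42425088). The ETS letters CCGGAAG, searched on both strands, occurred in 14 of these 32 (43.75%), beside 10.67% of 27305 genes. The NRF1 letters GCGCATG occurred in 9 (28.1%, beside 4.67%), and the YY1 letters AAGATGG in 9 (28.1%, beside 6.06%), searched in the same way. The 27305 genes were not limited to expressed or protein-coding genes, whereas all members passed the filter on low values. The sets are thus unlike, and no comparison with expressed genes alone was made. The NRF1 and YY1 letters were shortened after a first count was seen. Matches of the ETS and YY1 letters can share their AAG, and a match is a description of the letters and not of binding.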

How the data were processed

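Ribosome footprints were read from 1 table over 15 libraries, 3 in each of 5 groups, with 1 value per gene row and library. The deposited values are a signal that the authors made from reads per gene by dividing them by a size factor per library, since whole multiples of the value of 1 read (within 0.001) returned 100% of values. They are called normalized counts here. Tools and builds named in the submitters' processing notes are DESeq2, HTSeq, STAR, Bowtie and cutadapt, and hg38 and hg19, with no versions or roles, and how reads with several positions were counted is not given in the sources used here. Of the rows, 28 have names turned into dates and 4 share a name with another row, and none is a member.

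The members were found by symbol. They and all gene lists were chosen with earlier results of these data known, so no list is independent evidence. Values were tested as log2(value + 1) with limma 3.58.1 (R 4.3.3, eBayes with a trend). One fit held the 9 Flag/HA libraries and another the 6 other libraries, over genes at 10 or more in at least 3 libraries, with Benjamini-Hochberg adjustment over all genes and a threshold of 0.05. Fold changes are on that log2 scale. The fits were tested on simulated data. Libraries held 20777204 to 42680589 assigned reads, and counts are of sequenced fragments, so precision beyond counting rests on the 3 libraries a group. Alternatives were pseudocounts of 0.5 and 8, no filter or a filter of 50, TMM and quantile scaling, library weights, 1 fit over all libraries, edgeR 4.0.16 and DESeq2 1.42.0 on the recovered reads, the replicate number as a block, and leaving out each replicate.

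Members are named with values in every library where they were, within their complex, among the 2 with the smallest p of those called in a direction and comparison or had the largest change, or belong to ATP5G1, ATP5G2 and ATP5G3 or to COX7A2 and COX7A2L. From each further list, at most 1 called gene per direction and comparison is named. ATP5B, UQCR11's sequence, the ratios of pairs and the subunit c sums were chosen after their values were seen. Per-codon levels divide a value by the codons of the gene's longest coding sequence in GENCODE 29 (GRCh38), which is an approximation where HEK293 cells use another transcript or the counts include other exons. Pseudogene rows were found by name. Of the further lists, 4 names (UQCRHL, SDHAF3, SDHAF4 and UQCC3) are not analysed here. Sequences are from GENCODE 29 and promoter windows from RefSeq. The NRF1 and YY1 motif letters are the start of longer consensus sequences and were shortened after a first count was seen. No window was matched for SDHC, UQCRB, CYC1, COX6C, NDUFA4, ATP5B, ATP5D, ATP5G3 and ATP5J2, which are thus not in the motif counts. Figures were drawn with matplotlib 3.10.9 in Python 3.11.15. No table columns of other samples were used.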

Additional observations from a re-analysis of the deposited data

How the results depend on the processing

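The calls of SDHB, CYC1, CYCS and COX6B1 with ZC3H7A held under all 17 alternatives, as did 17 of 22 calls with ZC3H7A, 15 of 24 with ZC3H7B, 11 of 18 between them and 6 of 12 in the DD-labelled libraries. Quantile scaling called 8 members higher with ZC3H7A. In 1 fit over all libraries, 11 members were lower with ZC3H7B, 6 were higher and 5 lower with ZC3H7A than with ZC3H7B, and 2 members and 2923 of all genes were higher in the DD-labelled libraries. Precision weights per library, whose iteration stopped before convergence in 1 fit, called 4 members higher and 19 lower there, and 4426 and 4577 of all genes. Leaving out 1 replicate moved the members' median log2 change with ZC3H7A between -0.147 and -0.054, that with ZC3H7B between -0.116 and -0.049, and that of ZC3H7A against ZC3H7B between -0.017 and 0.063. In the DD-labelled libraries it gave 6 to 17 members lower and 0 to 1 higher, and 1192 to 2989 of all genes lower and 767 to 2642 higher. With fewer libraries the spread is estimated from fewer values, and other causes were not tested.

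Direction turned for values that passed no test in either setting. ATP5G2 stood at 0.082 with ZC3H7A and 0.088 with ZC3H7B under quantile scaling, and from -0.080 to 0.0080 with ZC3H7A when 1 replicate was left out. Between ZC3H7A and ZC3H7B, ATP5G2 stood at 0.020 with TMM, 0.019 with edgeR and 0.0084 with DESeq2. With 1 replicate left out it ran from -0.039 to 0.061, ATP5G1 from -0.106 to 0.011 and COX7A2 from -0.017 to 0.118. COX7A2L in the DD-labelled libraries stood at -0.17 with precision weights and from -0.076 to 0.102 with 1 replicate left out. The cause was not tested.

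Whether the replicate numbers pair the libraries was not tested. Deviations from the group means correlated at -0.133 to 0.092 for same-numbered libraries and at -0.101 to 0.166 for others. Between ZC3H7A and ZC3H7B, same-numbered libraries gave 0.019 to 0.092 and others -0.063 to 0.020. With the replicate number as a block, 7 members were lower in the DD-labelled libraries, and 19 were lower with ZC3H7A and with ZC3H7B alike. With mitochondrially encoded reads left out of the total, the members took 1.04% of control reads. With codons of principal transcripts, chosen after seeing the data, the median level per codon was 46.1 with ZC3H7A, 45.7 with ZC3H7B and 44.0 in Parental, in place of 34.8, 39.6 and 40.0. The planned use of RefSeq protein lengths was not run. SDHD, with as few as 221 reads, had a standard error of 0.094 in the Flag/HA fit, against 0.056 for SDHB. ATP5E, at 2898 normalized counts in the control, had 0.085. In the other fit COX6A1 (1190 in Parental) had 0.28 and SDHD (431) 0.18. How far depth sets these errors was not tested. Further limits are the 3 libraries a group and the reads that near-identical copies share.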
